A study of Rattus norvegicus with 6 samples.

Results

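The transcripts described here are those whose array probes carry a RefSeq accession beginning with XR_, the prefix that RefSeq gives to predicted noncoding RNAs. Of 24614 probes with a usable spot on all 6 arrays, 1699 carry such an accession, each a different one. The 1231 XR probes whose signal was called well above background throughout the 3 arrays of either group were compared, out of 17930 probes of all kinds that met the same rule. The arrays are 1-colour Agilent arrays of total RNA from the myocardium of male Wistar rats, made to find noncoding and messenger RNAs that change beside an infarct. The border zone group (arrays M17, M24 and M25) comes from hearts in which the left anterior descending coronary artery had been ligated, with the tissue beside the infarct located 6 h later by a double stain with TTC and Evans blue. The sham group (arrays C4, C5 and C6) comes from the myocardium of sham-operated rats at 6 h. All rats were of the same sex and strain, and no genetic change or drug is named for either group. The labels number the samples but do not state that each came from its own animal, so p-values measure the spread between arrays, which may be technical.

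RefSeq builds XR_ records by aligning transcript evidence to a genome and predicting a model with no accepted open reading frame. Such models include long noncoding RNAs, transcribed pseudogenes and noncoding variants of coding genes, and many early models were later withdrawn or replaced. A transcribed pseudogene can share long stretches with its parent gene, so a probe for one may also bind messenger RNA of the other. None of the 1699 accessions was found in the RefSeq gene table of assembly GRCr8, which holds 28285 XR_ transcripts. The array columns used here give no gene name, position or probe sequence for them. The members are therefore named by accession, no function can be stated for any of them, and whether a signal comes from the predicted RNA itself or from a related transcript was not tested.

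The arrays differed in ways that the groups did not explain. XR probes well above background made up 73.9% of the 1699 on M17, 77.3% on M24, 78.5% on M25 and 73.8% on sham C4, but 43.0% on C5 and 44.5% on C6. C4 was scanned together with the border zone arrays, whereas C5 and C6 each had a scan of their own. Of 29 measured markers of central nervous tissue, 16 were well above background on all 6 arrays, and these 16 were all higher on C5 and C6 than on the other 4 arrays, with a median difference of 1.87 from C4 on the log2 scale. The background rule asked for a higher normalised signal on C5 and C6 than on the other 4 arrays. The direction of any dim marker among the 16 was thus fixed by that rule. Over the 29, 18 were above background on C4, 22 on C5 and 24 on C6. The summed level of those 29 markers was 51.6 to 61.2 on the border zone arrays, 62.6 on C4, 84.8 on C5 and 92.5 on C6. Sums are in units of the array's 75th percentile signal. Most of each sum came from the 6 astrocyte markers, with 47.7 to 58.1, 56.8, 67.0 and 71.3 in that order. The list they were drawn from includes Gja1, and whether their signal comes from nervous tissue or from heart cells was not tested. The 15 neuron markers summed to 0.584 to 0.678, 0.537, 6.11 and 6.85. The 8 oligodendrocyte markers summed to 2.58 to 3.23, 5.28, 11.7 and 14.3. Syt1, Gad2, Slc17a7 and Gria2 were above background on no array. All 9 measured cardiomyocyte markers were well above background on every array. All 7 measured neutrophil markers were called higher in the border zone, against 9.01% of all probes tested. Their summed level was 4.94 to 5.23 against 0.164 to 0.425 in sham. Only 5, 1 and 2 of the 7 were above background on C4, C5 and C6, so the sham sums lie near the floor. Most of the 7 thus entered the comparison through the border zone alone, which favours rises. Of all probes that entered that way, 5.79% were called higher. Of 8 monocyte and macrophage markers 3 were called higher and 2 lower. Of 5 fibroblast markers 0 were called higher and 2 lower, against 10.3% of all probes called lower. The part of these markers in the XR results was not tested. In bulk tissue, fewer cells of a type and less RNA per cell cannot be told apart.

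XR transcripts were called higher in the border zone in greater number than lower. Values are log2 of the processed signal minus the 75th percentile of the same array, and a call is an adjusted p below 0.05 in limma with Benjamini-Hochberg adjustment over all 17930 probes. With all 6 arrays, 168 of the 1231 XR probes (13.6%) were called higher, against 9.01% of all probes tested. Only 37 XR probes (3.01%) were called lower, against 10.3% of all probes. With quantile normalisation the XR share called higher was 8.77% against 8.39% of all probes, and with no filter on dim probes it was 2.53% against 3.21%, so the difference from all probes was not kept there. The rises had a median of 1.01 on the log2 scale. Of them 38 had at least 1 sham array not well above background, and the other 130 ran from 0.43 to 2.70 with a median of 0.96. The falls ran from -0.46 to -1.79 with a median of -0.82, and 10 of them were at least 2-fold. The groups did not overlap, with the border zone higher, in 458 XR probes (37.2%) against 20.9% of all probes. They did not overlap in the lower direction in 94 XR probes (7.64%) against 22.8% of all probes. Over all 1231 XR probes the median log2 fold change was 0.35 against -0.03 over all probes, but with normexp background correction these medians were -0.14 and -0.35, so its sign turned while XR probes lay above the rest under both.

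Sham C4, the only sham array scanned with the border zone, gave smaller differences. Against C4 alone the median over all XR probes was 0.08. The groups did not overlap in any of the 205 calls, and C4 was 1 of the sham arrays tested. A called rise could thus only be positive against C4, and a called fall only negative. The 168 rises had a median of 0.66 against C4, and 25 of them were at least 2-fold. The 37 falls had a median of -0.69 against C4, and 6 were at least 2-fold. A limma fit with scan as a block, which equals a comparison with C4 and holds no spread between sham arrays, called 156 XR probes higher against 8.43% of all probes and 42 lower against 7.5% of all probes. Of the rises called with all 6 arrays, 98 were also called in that fit, and of the falls 21 were. Both fits use the same border zone and C4 values, and no share over all probes is given for this overlap.

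**Figure D1:**
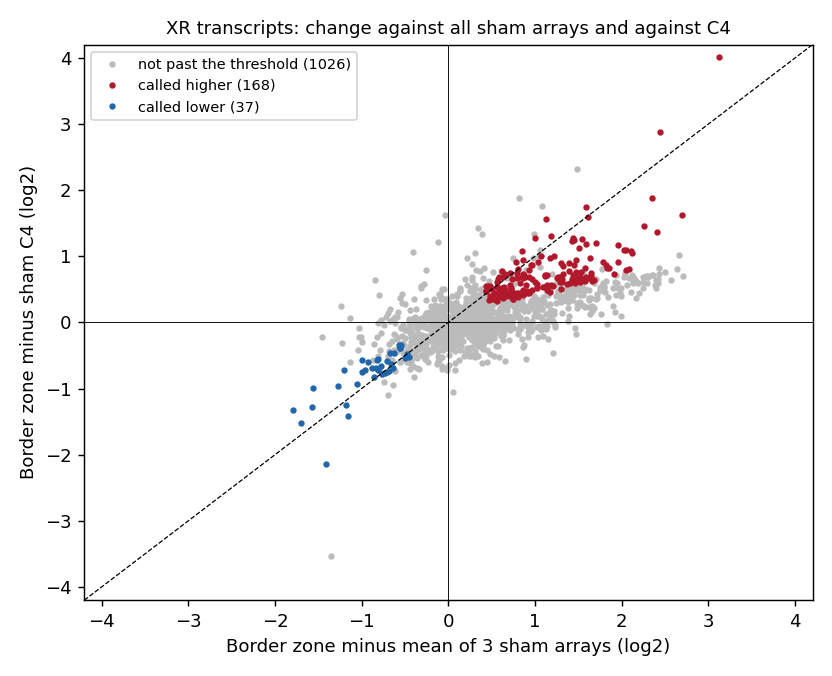
Each point is 1 of the 1231 XR probes, with the border zone mean minus the mean of the 3 sham arrays on the x axis and minus sham C4 on the y axis, both log2; the dashed line marks equal values. The 168 probes called higher and the 37 called lower lie on the same side of 0 on both axes, because their groups did not overlap. Most rises lie below the line, with a median of 1.01 on the x axis and 0.66 on the y axis.

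The number of calls depended on single arrays. Each count is followed by the percent of all probes called in the same fit. Leaving out M17 left 24 XR probes called higher (all probes 3.9%) and 13 lower (all probes 4.12%). Leaving out M24 left 17 higher (all probes 3.05%) and 12 lower (all probes 3.46%), and leaving out M25 left 7 higher (all probes 1.6%) and 4 lower (all probes 1.24%). Leaving out C5 left 33 higher (all probes 3.69%) and 17 lower (all probes 4.14%), and leaving out C6 left 68 higher (all probes 6.64%) and 28 lower (all probes 6.56%). Without C4 the calls rose to 566 higher (46.0% of XR probes, 20.8% of all probes) and 78 lower (6.34% of XR probes, 19.9% of all probes). The XR share called higher was thus above that of all probes with all 6 arrays, with the scan block and without C4, and below it when any other single array was left out. The median SD of an XR probe was 0.114 among the border zone arrays and 0.463 among the sham arrays. The middle value of the border zone arrays was that of M25 in 65.0% of XR probes, of M17 in 15.4% and of M24 in 19.7%. It was also that of M25 in all 12 XR probes whose border zone arrays differed by more than 2-fold. No share over all probes is given for the middle value, so whether this is particular to XR probes was not tested. Whether M25 is an independent sample was not tested.

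**Figure D2:**
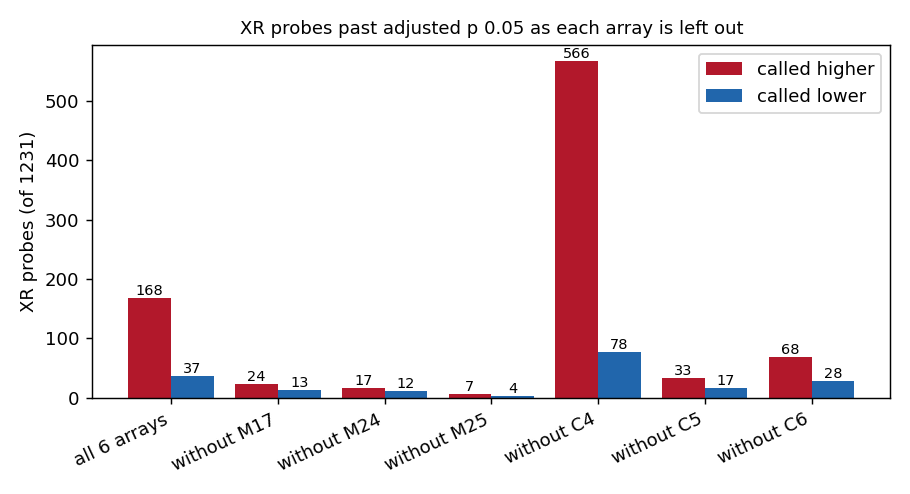
Bars count the XR probes, of 1231, called higher (red) or lower (blue) in the border zone at adjusted p below 0.05, with all 6 arrays and with each array left out. The counts fall to 7 and 4 without M25 and rise to 566 and 78 without C4.

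The calls that held whichever single array was left out came to 7 rises and 4 falls, the same 11 XR probes that were called without M25. They were singled out after their values were seen. In the fit without M25 these were 0.569% and 0.325% of XR probes, below the 1.6% and 1.24% of all probes called higher and lower. No share over all probes is given for calls that held whichever array was left out. Of these 11, only XR_005439 was also called without M25 when scan was a block, a fit with C4 as its only sham array that was added after the data were seen. XR_007499 read 3.09, 2.92 and 2.99 on M17, M24 and M25, and 1.26, 1.54 and 1.44 on C4, C5 and C6. Its border zone arrays all lay above its sham arrays, and its sham arrays lay within 0.28 of each other. It rose by 1.59 ± 0.12 (SE, n = 3 arrays per group) on the log2 scale, or 3.01-fold, with a limma adjusted p of 0.00199 and a difference of 1.74 from C4. XR_005439 read 0.16, 0.13 and 0.15 in the border zone against -2.73, -2.44 and -1.73 in sham. The border zone arrays nearly coincided, and C4 was its lowest sham array. It rose 5.44-fold (log2 fold change 2.44 ± 0.26, adjusted p = 0.00451 by limma), and by 2.88 against C4. XR_007238 read -0.81, -1.39 and -1.14 against -3.00, -3.62 and -3.75, with C4 its highest sham array. It rose 5.07-fold (2.34 ± 0.26, adjusted p = 0.00454 by limma), and by 1.89 against C4.

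XR_007175 read -2.27, -2.58 and -2.43 in the border zone and -4.02, -3.93 and -4.16 in sham, where C6 was not well above background. Its rise was at least 2.93-fold once C6 was raised to the lowest signal called above background on that array (log2 fold change 1.61 ± 0.13, adjusted p = 0.00228 by limma). With normexp background correction the log2 fold change was 0.40 and the call was lost (adjusted p = 0.233 by limma). The other 3 rises of this set were smaller, and their groups were also apart. XR_009342 read 0.73, 0.32 and 0.49 against -0.73, -1.04 and -1.03, a rise of 2.72-fold. XR_006993 read 2.31, 2.31 and 2.28 against 1.33, 1.12 and 0.93, a rise of 2.25-fold. XR_007539 read 1.69, 1.88 and 1.73 against 0.77, 0.65 and 0.67, a rise of 2.11-fold. C4 was the highest sham array in these 3, and against C4 they were higher by 1.24, 0.97 and 1.00 in that order.

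Among the falls of this set, XR_008527 read -1.0, -0.59 and -0.79 in the border zone and 0.73, 0.92 and 1.08 in sham. Its lowest sham array stood above its highest border zone array by more than the range within either group. It fell by 1.70 on the log2 scale (SE 0.16, n = 3 arrays per group, adjusted p = 0.0032 by limma), or 3.26-fold, and by 1.52 against C4. XR_008432 read -3.77, -3.73 and -3.77 against -2.48, -2.20 and -1.89. Its border zone arrays lay close together, and C4 was the sham array nearest to them. It fell by 1.57 (SE 0.17, adjusted p = 0.00451 by limma), and by 1.28 against C4. XR_007251 read -2.26, -2.35 and -2.33 against -1.07, -1.01 and -1.34, a fall of 2.26-fold. XR_009314 read -3.70, -3.65 and -3.64 against -2.73, -2.55 and -2.56, a fall of 2.08-fold. All 4 probes were well above background on all 6 arrays, and in none did the groups overlap.

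**Figure D3:**
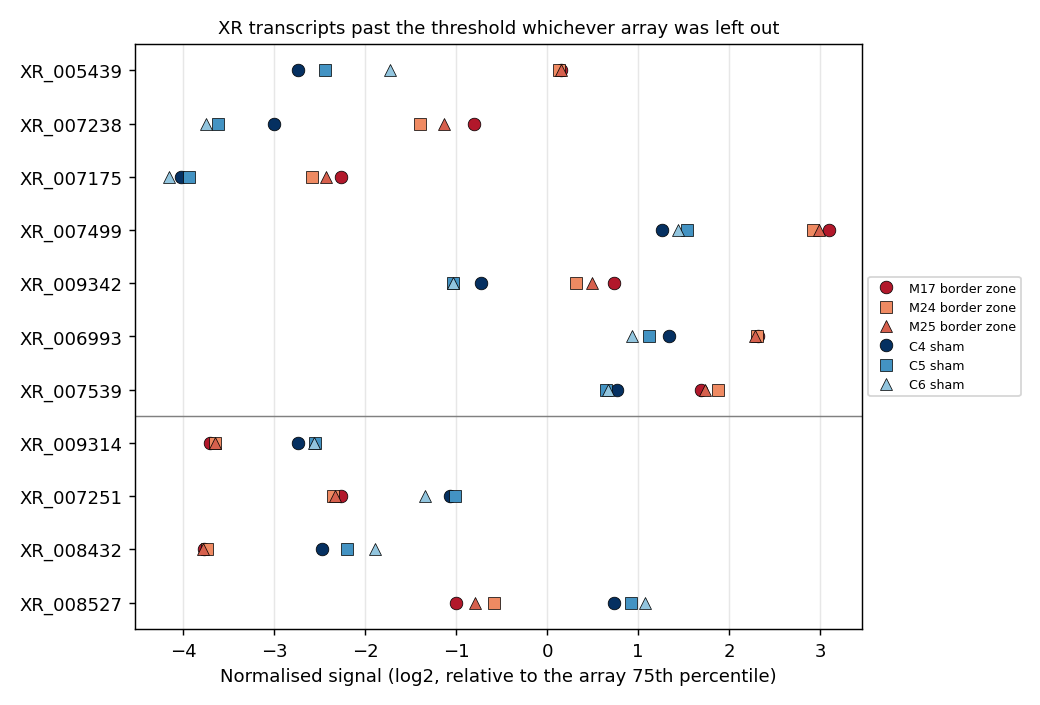
Points are the normalised signal on each of the 6 arrays (log2, relative to the 75th percentile of the array) for the 7 XR transcripts called higher (above the grey line) and the 4 called lower (below it) whichever array was left out; red symbols are border zone arrays and blue symbols sham arrays. In each row the red and blue symbols do not overlap, as for XR_007499 with 2.92 to 3.09 in the border zone and 1.26 to 1.54 in sham.

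The largest rises by size were mostly of transcripts whose sham arrays disagreed. XR_006843 was dim in sham, with -2.44, -2.76 and -2.67 in the border zone against -6.63 on C4, -6.16 on C5 and -4.46 on C6. Only C4 of its sham arrays was well above background, and the rise was at least 5.32-fold with signals as processed by the scanner software (log2 fold change 3.13 ± 0.56, adjusted p = 0.0175 by limma). With normexp background correction the log2 fold change was 0.63 and the call was lost (adjusted p = 0.198 by limma), as it was without M25 (adjusted p = 0.0835 by limma). XR_006678, the largest rise among probes above background on all 6 arrays, read 0.51, 0.28 and 0.35 against -1.25 on C4 but -2.81 on C5 and -2.89 on C6. Its rise of 2.70 ± 0.45 (adjusted p = 0.015 by limma) was 1.63 against C4. The same arrangement, with C4 above C5 and C6, was seen in XR_006356, XR_009527, XR_005860, XR_007377, XR_007146, XR_007255, XR_007003 and XR_006546. XR_006356 rose by 2.41 with all sham arrays and 1.37 against C4, and XR_009527 by 2.26 and 1.45. XR_007146 rose by 2.08 and 0.81, and XR_007255 by 2.05 and 0.79. The calls of XR_007146 and XR_007255 were also lost with quantile normalisation and with the authors' table. With no filter on dim probes both were lost too, as were those of XR_005860, XR_007377, XR_007003 and XR_006546. For each of these 9 probes, XR_006678 included, the call was lost without M25, with adjusted p-values by limma from 0.071 for XR_009527 to 0.15 for XR_007255. Among the 168 rises, C4 was the highest sham array in 137, and C5 and C6 averaged more than 1 log2 unit below C4 in 43. All 43 were at least 2-fold in the fit of 6 arrays. That was largely set in advance, because low values on C5 and C6 lower the sham mean from which a rise is measured.

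In 114 of the 168 rises the 3 sham arrays lay within 1 log2 unit of each other, and 32 of those rises were at least 2-fold. Ranking those by size was decided after the data were seen. Beside XR_007238, XR_007175 and XR_007499, this ranking gave XR_005499, XR_005701, XR_006542, XR_007017 and XR_007647. XR_005499 read 2.66, 2.83 and 2.73 in the border zone and 1.54, 0.89 and 0.67 in sham, a rise of 3.27-fold (1.71 ± 0.24, adjusted p = 0.00902 by limma). Every border zone array exceeded every sham array, and C4 was the nearest of them, 1.20 below the border zone mean. XR_007017 read 1.57, 1.63 and 1.58 against 0.47, -0.13 and -0.10, a rise of 2.85-fold (adjusted p = 0.0065 by limma), and XR_007647 rose 2.77-fold. XR_005701 and XR_006542 were dim, with C5 and C6 not well above background, and rose at least 1.67-fold and 1.35-fold. With normexp background correction their log2 fold changes were -0.053 and -0.222, neither past the threshold, so the direction of these 2 probes depends on how the background is subtracted. XR_006546, named above, also lost its call with normexp (log2 fold change 0.68, adjusted p = 0.061 by limma).

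In the falls the sham arrays mostly lay close together. In 36 of the 37 they were within 1 log2 unit, and in 24 C4 was the sham array nearest the border zone. The test favours probes whose sham arrays lie close together, so this closeness was partly set by the choice of called probes. No share over all probes is given for it. XR_008648 had the largest fall and read -4.11, -4.71 and -4.35 against -3.07, -2.33 and -2.41. Its groups were apart, with C4 the lowest sham array, and it fell by 1.79 on the log2 scale (SE 0.26, adjusted p = 0.00968 by limma), or 3.46-fold, and by 1.33 against C4. XR_006833 read -1.47, -1.16 and -1.31 against -0.35, 0.10 and 0.12, a fall of 2.41-fold. XR_008037 read 1.09, 0.91 and 0.98 against 1.71, 2.18 and 2.69, a fall of 2.30-fold with all sham arrays and of 0.72 on the log2 scale against C4. XR_008375 read -3.33, -3.07 and -3.20 against -1.79, -2.0 and -2.35, and here C4 was the highest sham array, so that its fall of 1.15 was 1.41 against C4. Without M25 these 4 falls had adjusted p-values by limma of 0.0607 to 0.12. XR_006437, XR_008807 and XR_007660 fell by 0.96, 0.99 and 1.00 on the log2 scale. Against C4 they were lower by less, with differences of -0.71, -0.57 and -0.75, and none was called in the fit with scan as a block.

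The sham arrays differed from each other in many XR transcripts. This was described in the 706 XR probes well above background on all 6 arrays, of which 130 (18.4%) were called higher, against 10.6% of all such probes, and 31 (4.39%) lower, against 14.2%. In these probes the mean of C5 and C6 lay below C4 by a median of -0.40 on the log2 scale. For the 8947 probes of RefSeq messenger RNAs (NM_ accessions) that met the same rule, the median was 0.05. C5 and C6 averaged more than 1 log2 unit below C4 in 192 XR probes (27.2%) and in 165 NM probes (1.84%). Both arrays lay below the other 4 in 416 XR probes (58.9%), against 19.2% of NM probes, and above the other 4 in 81 XR probes (11.5%), against 30.3%. C5 alone gave a median of -0.40 from C4, and C6 alone -0.43. The difference between XR and NM medians was -0.45, and it ran from -0.41 to -0.51 with quantile normalisation, median scaling, normexp, the authors' deposited table and either array alone. These are descriptions of 3 sham arrays with no test, and the scan, the depth of signal and the nervous tissue markers moved with C5 and C6 together, so their parts cannot be told apart.

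The gap was seen at every range of signal. XR probes with a mean level above 0 numbered 397, with a median gap of -0.43 and 26.7% more than 1 log2 unit below C4. Those with a mean of -2 to 0 numbered 187, with a median of -0.65 and 39.6%. The 122 dimmest, below -2, had a median of -0.18 and 9.84%. NM probes in the same ranges had medians of 0.07, 0.01 and 0.09. XR probes were mostly spotted 3 times (1695 of 1699), and NM probes mostly once (99.8%), so the classes also differ in the number of spots averaged.

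**Figure D4:**
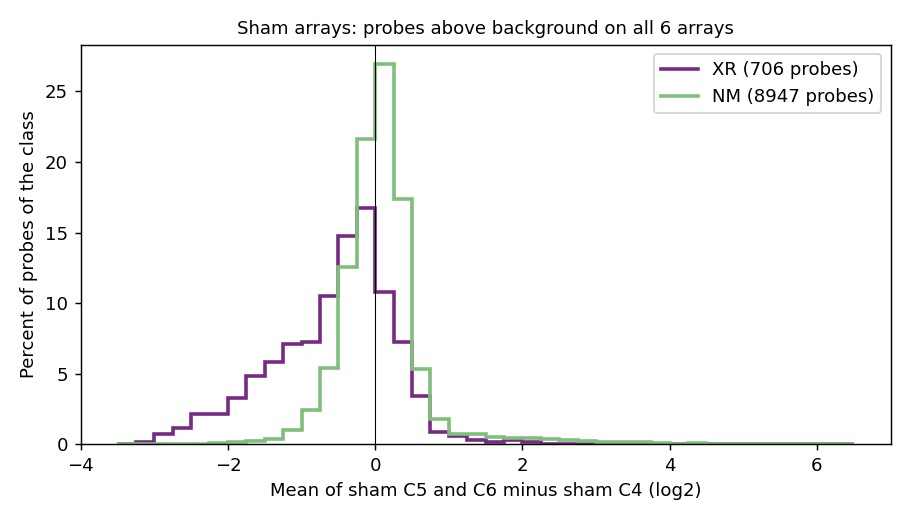
The lines give the percent of probes, in steps of 0.25 log2 units, by the mean of sham C5 and C6 minus sham C4, for 706 XR probes (purple) and 8947 NM probes (green) well above background on all 6 arrays. The XR line is shifted to the left of 0, with a median of -0.40 and 27.2% below -1, while the NM line centres near 0 with 1.84% below -1.

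Single members show the size of that gap. XR_005665 read 2.68, 2.75 and 2.57 in the border zone, 1.96 on C4, and -1.08 and -1.02 on C5 and C6. C4 stood nearer to the border zone arrays than to C5 and C6, which lay close together at 3.01 below C4 on average. Its log2 fold change with all 6 arrays was 2.71 ± 0.83, which did not pass the test (adjusted p = 0.0716 by limma). XR_007062 read 1.15, 0.83 and 0.95 in the border zone, 0.88 on C4, and -1.95 and -1.98 on C5 and C6. Its C4 value lay inside the border zone range, while its difference from all sham arrays was 1.99 ± 0.79 (adjusted p = 0.129 by limma). XR_005888, XR_006046, XR_008661 and XR_009225 had the same arrangement, with C5 and C6 at 2.65 to 2.80 below C4 on average. These 6 were taken after their values were seen, as those lowest on both arrays. Of the 192 XR probes more than 1 log2 unit lower on C5 and C6, the 2 arrays lay within 1 log2 unit of each other in 191, and the border zone lay within 1 log2 unit of C4 in 183. The border zone mean was above C4 in 159 of the 192, and the median difference over all 192 was 0.40. Among probes well above background on all 6 arrays, the border zone mean was above C4 in 64.9% of XR probes and 45.9% of NM probes. No such shares are given for the counts of 191 and 183.

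The 81 XR transcripts that went the other way were highest on C5 and C6. The lowest normalised signal called well above background was -4.49 on C5 and -3.98 on C6, against -7.41 to -6.98 on the other 4 arrays. A probe below the first 2 levels on the other arrays could be among the 706 only by reading higher on C5 and C6, so the direction of the dim members was fixed by the background rule. The 6 that stood farthest above the other arrays were XR_008674, XR_006164, XR_007989, XR_005438, XR_008893 and XR_007886, and of these XR_005438 alone read above both levels on all 6 arrays. It read -2.26, -2.31 and -2.34 in the border zone and -2.73 on C4, but -1.26 on C5 and -1.32 on C6. XR_008674 read -5.86, -5.63 and -5.48 in the border zone and -5.44 on C4, but -3.41 on C5 and -3.76 on C6. XR_006164 read -4.04, -3.52 and -3.75 in the border zone and -4.41 on C4, but -2.38 on C5 and -1.97 on C6. C4 sat just above the border zone arrays in XR_008674 and below them in XR_006164. Neither passed the test (adjusted p = 0.107 and 0.379 by limma), nor did XR_005438 (adjusted p = 0.384 by limma). XR_008893 was the only one of the 6 that did, with -5.09, -4.93 and -4.99 against -4.01, -3.18 and -3.14. It fell by 1.56 on the log2 scale (SE 0.25, adjusted p = 0.0136 by limma), and by 1.00 against C4, but with normexp it missed the threshold (adjusted p = 0.0535 by limma). Whether these 6 transcripts belong to nervous tissue was not tested.

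**Figure D5:**
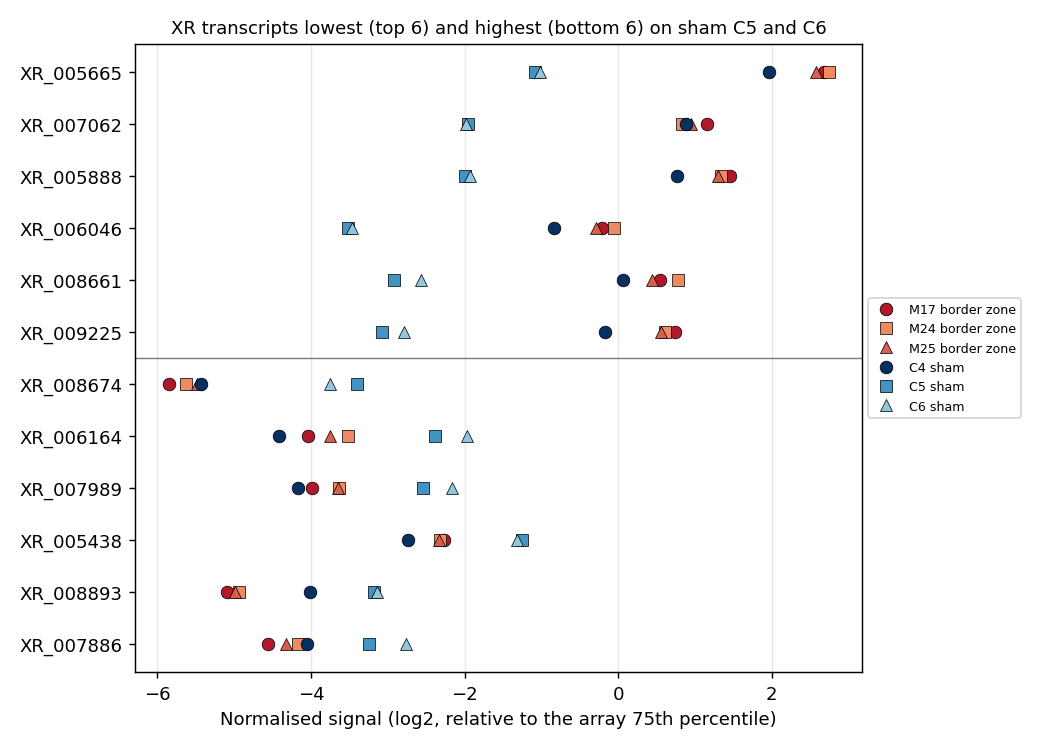
Points are the normalised signal on each array (log2, relative to the 75th percentile of the array) for the 6 XR transcripts lowest on sham C5 and C6 (above the grey line) and the 6 highest there (below it); red symbols are border zone arrays and blue symbols sham arrays. In each row C5 and C6 lie on one side of the other 4 arrays, as for XR_007062, where they read -1.95 and -1.98 beside 0.88 on C4 and 0.83 to 1.15 in the border zone.

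Dim transcripts entered the comparison through the border zone. Of the 1231 XR probes, 706 were well above background on all 6 arrays, 525 on all border zone arrays but not all sham arrays, and 0 on all sham arrays only. C4 was above background in 495 of the 525. Of the 525, 38 (7.24%) were called higher, against 5.79% of all probes that entered the same way, and 6 (1.14%) lower, against 2.28%. Entry through the border zone alone makes a rise more likely to be testable than a fall. The 468 XR probes that were not kept included 318 above background on no array. XR_005988 was far brighter on 1 sham array than on the others, with -1.68 on C4 against -3.93 on C5, -5.93 on C6 and -5.26 to -5.16 in the border zone. With all 6 arrays it did not pass the test (adjusted p = 0.377 by limma). It was chosen after its values were seen.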

How the data were processed

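Total RNA was labelled with Cy3 and hybridised to 1 array per sample, per the labels' protocols. The spot values are intensity signals that the authors deposited from Agilent Feature Extraction 11.0.1.1, per the submitters' processing notes. Other deposited columns used are flags of 0 or 1 for each spot, per the file headers. The authors' deposited table of log2 values, whose normalization is not given in the sources used here, served as an alternative and held 1695 of the XR probes.

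Control spots and outlier spots were left out, log2 spots of a probe were averaged, and the 75th percentile of each array was subtracted. A probe counted as above background on an array when most of its usable spots did. Groups were compared by limma 3.58.1 (lmFit, eBayes, two-sided) in R 4.3.3, with Benjamini-Hochberg adjustment over 17930 probes, after the code was tested on simulated data. Lower-bound folds raise dim arrays to the lowest signal called above background there. The build and aligner behind the probe design are not used here.

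Named members are the 12 largest rises and 12 largest falls among probes past the threshold whose groups did not overlap, 8 falls with sham arrays within 1 log2 unit, 8 rises above background on all 6 arrays, and 6 probes highest on C5 and C6. Choices made after their values were seen are named as such. Not every one is printed with values. The members and lists were chosen with earlier results of these data known. Planned groupings by gene description could not be made. Alternatives were quantile and median scaling, normexp (offset 50, on median spot signals because no mean signal column was used), other filters, the authors' table, other variance settings, scan as a block, and each array left out.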

Additional observations from a re-analysis of the deposited data

How the results depend on the processing

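The count of XR probes called higher was 168 (13.6%, against 9.01% of all probes). It was 108 (8.77% against 8.39%) with quantile normalisation, 43 (2.53% against 3.21%) with no filter on dim probes, 269 (21.9% against 11.4%) with trend and robust variances and 781 (63.4% against 36.2%) with array weights, and 7 to 566 as each array was left out. The count called lower was 37 (3.01% against 10.3%). It was 19 (1.54% against 5.18%) with median scaling and 140 (11.4% against 31.1%) with array weights, and 4 to 78 as each array was left out. The array weights did not converge and gave M25 a weight of 411 against 0.072 for C4, so those counts are not a usable check. Without M25 and with scan as a block, a setting added after the data were seen, 2 XR probes were called higher (XR_005439 and XR_006843) and 1 lower (XR_005988). Both counts stayed within 1.5 times their value with normexp, the filter on all 6 arrays and the authors' table, but the shares moved. With the filter on all 6 arrays, 242 of 706 XR probes (34.3% against 15.8% of all probes) were called higher. In that setting 47 (6.66% against 20.2%) were called lower. The shares called higher and lower were 9.26% against 5.6% and 2.11% against 7.19% with normexp. With the authors' table they were 10.9% against 9.56% and 2.93% against 9.87%.

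The median difference of C5 and C6 from C4 was -0.40, and -0.48 with quantile normalisation, -0.55 with median scaling, -0.31 with normexp and -0.48 in the authors' table, settings added after the data were seen. It was -0.43 without C5 and -0.40 without C6. With normexp, 144 of the 168 rises stayed positive, and all 37 falls stayed negative. Among the named rises, XR_005701 and XR_006542 reversed with normexp, to -0.053 and -0.222. Scaling moved the median of all probes from -0.03 to 0.09 with quantile normalisation, 0.16 with median scaling and -0.35 with normexp. Relative to it, the XR median was 0.37, 0.46, 0.37 and 0.21 in that order. Where these values moved, the cause was not tested. No paired analysis was possible because the groups share no replicate number. With 3 arrays a group, 1 sham array in the border zone's scan and C5 and C6 dimmer, small changes of dim XR transcripts could not be measured.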

Other observations

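Among coding genes above background on all 6 arrays, 6 groups chosen after the data were seen had medians of C5 and C6 minus C4 nearer to 0 than the -0.40 of the XR transcripts. The 71 probes of cytosolic ribosomal protein genes, which encode the protein part of the ribosome, had a median of -0.16, but both arrays lay below the other 4 in 43 (60.6%), a share near the 58.9% of XR probes. The 19 probes of histone genes had a median of -0.27, with 6 (31.6%). The 46 probes of translation factor genes had a median of -0.06, with 17 (37.0%), and the 72 probes of respiratory chain genes -0.02, with 19 (26.4%). The 37 probes of proteasome genes had a median of 0.06, with 12 (32.4%), and the 119 probes of zinc finger genes -0.01, with 20 (16.8%). Noncoding probes with MRAK accessions, 1075 of them, had a median of 0.13, and 15.8% lay below the other 4 arrays on both.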
